A study of Mus musculus with 68 samples.

Results

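Cells named brain vascular were compared with endothelial cells of 4 other organs, heart, kidney, lung and liver, of healthy mice, and the genes described are those that were higher, or lower, in the brain vascular cells against every one of these organs. The comparison rests on 10 of the 68 mouse RNA-seq libraries of the series, 2 in each of the 5 groups. Per the labels, all 5 groups share one preparation, in which cells were purified by fluorescence-activated sorting into Trizol, extracted with phenol and chloroform, and made into libraries with 2 NuGEN kits, Ovation RNA-seq V2 and Ovation Ultralow. Strain, age and sex of these animals are not given in the sources used here, nor whether 2 libraries of a group came from separate animals, so p-values measure only the spread between these libraries.

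A further pair of libraries, named brain endothelial, served to separate genes of mural cells from genes of the endothelium. They came from the forebrain of adult male mice that carry a Rosa-tdTomato reporter and VE-Cadherin-CreERT2, a Cre recombinase that is active in VE-Cadherin-expressing (endothelial) cells once tamoxifen is given. Tamoxifen was injected at 20 mg/ml in 100 µl on 3 consecutive days, 10 days before the cells were enriched. Their labels describe steps that the other labels do not mention. These were digestion with papain and with collagenase and dispase, removal of myelin and purification of RNA on a Qiagen RNeasy column. By source name the brain vascular cells are brain endothelial cells too, and the labels do not say how their sort differed. Levels are also given for 13 brain libraries that are the controls of the epilepsy, MCAO stroke and TBI models and for 3 spinal cord libraries that are the controls of EAE. The labels name no treatment for these 16 controls. They were not tested, because a test would use the same organ libraries again.

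Endothelial cells of the brain form the blood-brain barrier. They are joined by tight junctions, take up few vesicles, and move sugars, amino acids, hormones and lipids by dedicated carriers, while efflux pumps return many drugs to the blood. Wnt signalling through beta-catenin, started by ligands from the surrounding neural tissue, induces and maintains this state. Pericytes on capillaries and smooth muscle cells on arterioles, together called mural cells, lie in the same basement membrane and are recruited by PDGF-B from the endothelium acting on PDGFRB. Endothelium of heart, kidney, lung and liver is leakier and has fenestrae, caveolae or fatty acid uptake in varying degree.

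Recovered read totals were 24329086 and 25089336 in the brain vascular libraries, 23199338 to 34241175 in the organ libraries, and 18779302 and 21388843 in the brain endothelial libraries. The 2 mitochondrial rRNA genes took 40.7 and 22.3% of the reads of brain vascular libraries 1 and 2, against 17.3 to 30.3% in the organ libraries. Values are counts per 1000000 reads (CPM), which are not divided by gene length, so levels are compared between libraries and not between genes. A value of 0 allows up to 0.123 and 0.12 CPM in the brain vascular libraries, from 3 reads as the limit and for counting error only. The label of endothelial cells was checked against 18 endothelial markers. Their summed level was 11330 to 17906 CPM in brain vascular cells, 12049 to 19538 CPM in the organs, 19241 to 21283 CPM in brain endothelial cells, and 202 to 298 CPM in the 4 whole brain libraries. None of the 18 was higher or lower in brain vascular cells against all 4 organs, although Flt1 and Cldn5 were higher under TMM scaling, and Cdh5 and Eng lower without brain vascular library 2. Against heart 6 of the 18 were higher and 3 lower (12.2 and 16% of all genes), and against kidney 2 and 7 (5.89 and 17.1%). Against lung 1 was higher and 5 lower (5.22 and 15.1%), and against liver 5 and 3 (11.6 and 13.2%). Pecam1, an adhesion molecule of endothelial junctions, had 629 and 1003 CPM in brain vascular cells and 736 to 2044 CPM in the organs, and Cdh5, which encodes VE-Cadherin, had 684 and 1209.6 and 1341 to 2960.5 CPM.

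Each organ was tested with limma on log2(CPM + 1), and a gene was called at an adjusted p under 0.05 over 15647 genes. Log2 folds are given as brain vascular over the other group on this scale, with the standard error of the fit after ±, which understates the change of low genes. Calls numbered 4405 against heart (28.2% of those tested), 3593 against kidney (23%), 3172 against lung (20.3%) and 3881 against liver (24.8%). Brain vascular cells were higher for 1909 genes (12.2%) and lower for 2496 (16%) against heart. Against kidney the counts were 922 (5.89%) and 2671 (17.1%), against lung 817 (5.22%) and 2355 (15.1%), and against liver 1821 (11.6%) and 2060 (13.2%). The median log2 fold of all tested genes was -0.31 against kidney and -0.23 against lung, while it was -0.04 against heart and -0.05 against liver. The split of calls into higher and lower genes depends on the scaling and on single libraries. With TMM scaling, 1559 genes were higher and 1812 lower against kidney, and 1274 were higher and 1949 lower against lung. With quantile normalization the counts were 1551 and 1783 against kidney and 1490 and 1746 against lung, and with mitochondrial genes left out 1341 and 2117 against kidney and 1202 and 2019 against lung. Against heart, 2485 genes were higher and 2398 lower with quantile normalization, so that the balance turned. It turned against liver too, with 2189 higher and 2178 lower with quantile normalization, 2187 and 2161 with TMM scaling, and 2224 and 2191 with mitochondrial genes left out. Without brain vascular library 1, 2610 genes were called against heart (1349 higher and 1261 lower), 1776 against kidney, 1924 against lung, and 1686 higher and 1302 lower against liver. With library 2 left out, the higher genes numbered 878 against heart, 588 against kidney, 459 against lung and 1124 against liver. The balance against liver was 1491 higher and 1416 lower without liver library 2, and 1504 genes were lower against lung without lung library 2. The count against heart was 2080 without heart library 1, and that against kidney was 2109 and 2160 without kidney libraries 1 and 2.

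A set of 388 genes (2.48% of those tested) was called higher with a log2 fold above 1 against each of the 4 organs, and 440 genes (2.81%) were called lower with a log2 fold below -1 against each. Both brain vascular libraries lay above all 8 organ libraries for each of the 388 genes, a pattern that 6.19% of tested genes had. They lay below all 8 for 439 of the 440, against 11% of tested genes. The same libraries chose these genes, so nothing is read from these shares. For each gene, the organ with the smallest difference is called the nearest organ. In the higher set it was heart for 119 genes, kidney for 118, lung for 103 and liver for 48, and the quartiles of the log2 fold over it were 1.58, 2.15 and 3.13. In the lower set it was heart for 131 genes, kidney for 128, lung for 97 and liver for 84, with quartiles of -2.38, -1.75 and -1.36. Of the higher genes, 83 were under 1 CPM in all 8 organ libraries, and of the lower genes 113 were under 1 CPM in both brain vascular libraries, 14 of them at 0. A further 292 genes were higher against exactly 3 organs, of which 115 missed lung, 95 kidney, 42 heart and 40 liver. Of 653 genes lower against exactly 3 organs, 274 missed liver, 153 heart, 141 kidney and 85 lung. Without brain vascular library 2 the higher set held 219 genes, and without library 1 the lower set held 240.

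The threshold of 1 is not a break in the data. Syt5 and Ano4 stood just inside it among higher genes, with 1.89 and 1.20 and 1.73 and 1.40 CPM in brain vascular cells and smallest log2 folds of 1.02 ± 0.34 and 1.03 ± 0.31, and Tcea3 and Nme5 just outside, with 0.99 ± 0.30 and 0.99 ± 0.30. Among lower genes, Lrrc58 and Tmem176b were just inside, at -1.0001 ± 0.29 and -1.002 ± 0.33, and Abcg1 and 1810011O10Rik just outside, at -0.99 ± 0.30 and -0.97 ± 0.21. Syt5 and Ano4 lost the call with edgeR (adjusted p = 0.301 and 0.34), and Lrrc58 and Tmem176b were no longer below -1 under TMM scaling.

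**Figure D1:**
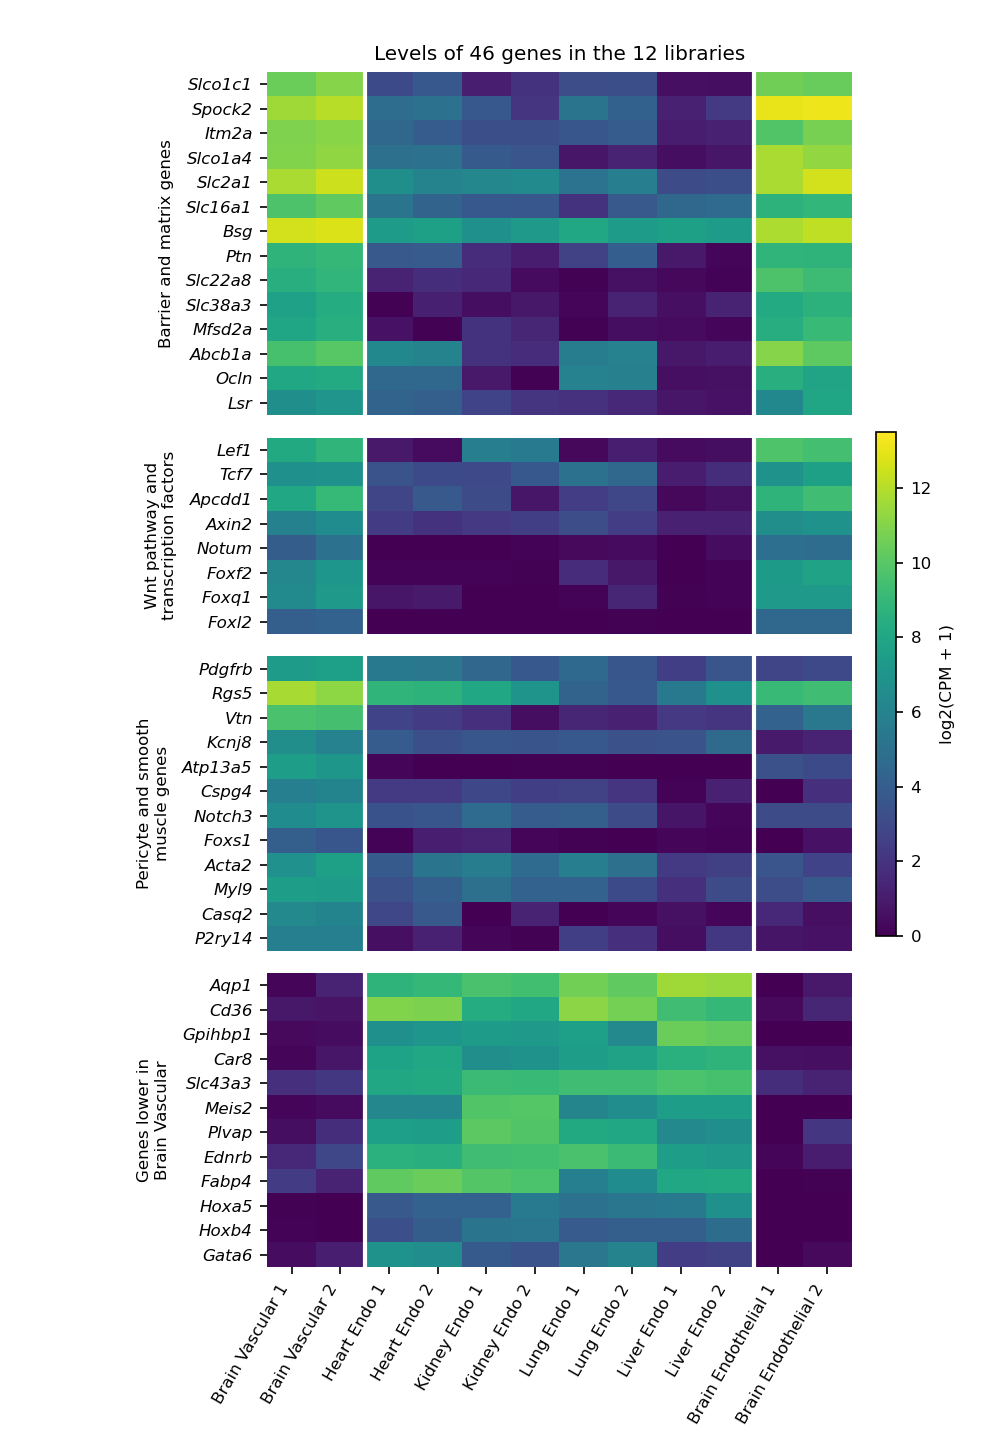
Level of 46 genes in the 12 libraries as log2(CPM + 1), in 4 blocks from barrier genes to genes lower in brain vascular cells, with the brain vascular libraries at the left, the organ libraries next and the brain endothelial libraries at the right. Barrier genes such as Slc2a1 are high in both brain groups, mural genes such as Pdgfrb are higher in brain vascular than in brain endothelial libraries, and genes such as Aqp1 and Cd36 are high in the 8 organ libraries.

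The gene lists used from here on were written with earlier results of these data known, so nothing is read from the share of members called. Carriers of the barrier led the higher set. Of 24 tested solute carriers and receptors known from the blood-brain barrier, 19 were higher against all 4 organs (2.48% of all genes), none was lower against all 4, and none passed the test against brain endothelial cells. Their median log2 fold was 4.96 over heart, 5.92 over kidney, 4.89 over lung and 6.04 over liver, against -0.04, -0.31, -0.23 and -0.05 for all genes. With brain vascular library 1 left out 18 were called against all 4 organs, and with library 2 left out 16.

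Slco1c1, a carrier of thyroid hormone, had 1419 and 2131 CPM in the 2 brain vascular libraries, against 7.07 and 12.0 in heart, 1.18 and 2.99 in kidney, 8.23 and 8.48 in lung and 0.492 and 0.408 in liver. Its fold over the nearest organ was the largest of the set (log2 fold 7.41 ± 0.38 over heart, adjusted p = 1.1e-07), and brain endothelial cells had 1511 and 1297 CPM. Slc2a1, the glucose carrier GLUT1, had 3508 and 5646 CPM in brain vascular cells, against 106 and 65.6 in heart, 75.6 and 84.8 in kidney, 34.6 and 54.1 in lung and 7.50 and 8.31 in liver (log2 fold 5.72 ± 0.31 over heart, adjusted p = 1.5e-07). No organ library came near either gene's brain vascular level. Slco1a4, a carrier of organic anions, had 1990.2 and 2442 CPM, against 0.416 to 33.6 CPM over the organ libraries (log2 fold 6.06 ± 0.30 over heart, adjusted p = 9.7e-08). Slc16a1, the lactate and ketone carrier MCT1, had 863 and 1176 CPM against 2.89 to 35.1 (log2 fold 5.23 ± 0.48 over heart, adjusted p = 7.8e-06). Bsg, the glycoprotein that brings MCT1 to the membrane, had 6115 and 7193 CPM against 111 to 268 (log2 fold 4.96 ± 0.27 over lung, adjusted p = 1.4e-07). Both were above all 8 organ libraries, as were all 388 genes of the higher set, which the same libraries chose.

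Mfsd2a, which carries lysophosphatidylcholine with omega-3 fatty acids and holds back vesicle formation, had 242 and 358 CPM in brain vascular cells and 0.0431 to 2.99 CPM in the organs (log2 fold 6.49 ± 0.41 over kidney, adjusted p = 4.2e-07). Slc22a8, an organic anion carrier, had 348 and 468 CPM against 0.0431 to 2.45 (log2 fold 7.10 ± 0.45 over heart, adjusted p = 4.7e-07). Slc38a3, a glutamine carrier, had 211 and 329.8 CPM against 0.0376 to 1.57 (log2 fold 7.10 ± 0.52 over liver, adjusted p = 7.0e-07). These 3 genes were at trace level in most organ libraries. Slc7a5, the light chain of the large neutral amino acid carrier, had 976 and 1344 CPM against 5.17 to 102 (log2 fold 3.48 ± 0.49 over liver, adjusted p = 1.9e-04). Its heavy chain Slc3a2, which serves other carriers too, was one of 5 members not called against all 4. Slc3a2 had 349 and 524 CPM in brain vascular cells, and its log2 fold over lung was 0.20 ± 0.26 (adjusted p = 0.66). The others were Slc6a6, a taurine carrier, which kidney had at 1264 and 1912 CPM against 1924 and 3135 in brain vascular cells, the iron exporter Slc40a1, at 249 and 300.5 CPM against 268 and 159 in liver, and Slc44a1. Slc39a8, a metal ion carrier, was higher against heart, kidney and lung and lower against liver (log2 fold -1.25 ± 0.27, adjusted p = 0.0045).

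Efflux pumps were divided. Of 10 ATP-binding cassette pumps, 4 were higher against all 4 organs (2.48% of all genes) and 1 was lower (2.81%). Abcb1a, which encodes P-glycoprotein, had 752 and 1005 CPM in brain vascular cells, against 78.8 and 64.5 in heart, 2.96 and 2.31 in kidney, 50.6 and 61.6 in lung and 0.833 and 1.04 in liver (log2 fold 3.59 ± 0.27 over heart, adjusted p = 1.5e-06). Abcg2, the breast cancer resistance protein, had 444 and 468 CPM against 25.2 to 126 (log2 fold 1.93 ± 0.21 over kidney, adjusted p = 3.5e-05). Abcc4 and Abcc6 were the other pumps that were higher, and Abcc6 had 19.4 and 31.7 CPM in brain vascular cells against 0 to 0.0840 in the organs. Abcc1 was lower, with 6.58 and 8.69 CPM in brain vascular cells and 16.6 to 36.2 CPM in the organs (log2 fold -1.38 ± 0.35 over liver, adjusted p = 0.011).

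Tight junction genes were higher in part. Of 15 tested, Ocln and Lsr were higher against all 4 organs (2.48% of all genes), and none was lower (2.81%). Ocln encodes occludin and had 274 and 307 CPM in brain vascular cells, against 21.4 and 21.8 in heart, 0.867 and 0.0373 in kidney, 63.4 and 57.6 in lung and 0.492 and 0.502 in liver (log2 fold 2.24 ± 0.33 over lung, adjusted p = 3.2e-04). Lsr, a component of tricellular junctions, had 106 and 132 CPM against 0.565 to 18.4 (log2 fold 2.72 ± 0.36 over heart, adjusted p = 1.7e-04). Cldn5, the main claudin of endothelium, had 726 and 1176 CPM in brain vascular cells and 707 and 360.0 CPM in lung, and did not pass the test there (log2 fold 0.87 ± 0.35, adjusted p = 0.11). It was higher against heart, kidney and liver, by 2.78 ± 0.35, 4.13 ± 0.35 and 2.51 ± 0.35. Under TMM scaling, quantile normalization and the omission of mitochondrial genes, 4 of the 15 were higher against all 4 organs, Cldn5 and Marveld2 being added.

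Targets and regulators of Wnt signalling were higher in part. Of 20 genes of the beta-catenin pathway, 8 were higher against all 4 organs (2.48% of all genes) and 1 was lower (2.81%). Against heart 10 were higher and 3 lower (12.2 and 16% of all genes), and against kidney 11 and 5 (5.89 and 17.1%). Against lung 11 were higher and 3 lower (5.22 and 15.1%), and against liver 11 and 2 (11.6 and 13.2%). Against brain endothelial cells none was higher (4.67%) and 2 were lower (2.55%), with a median log2 fold of -0.60. Lef1, a DNA-binding partner of beta-catenin and itself a target, had 289 and 449 CPM in brain vascular cells, against 0.865 and 0.321 in heart, 52.9 and 48.0 in kidney, 0.216 and 1.18 in lung and 0.303 and 0.408 in liver (log2 fold 2.81 ± 0.39 over kidney, adjusted p = 2.7e-04). Both kidney libraries stood far above the 6 other organ libraries for this gene and still below brain vascular cells. Axin2, a feedback inhibitor, had 59.7 and 92.3 CPM against 1.38 to 8.02 (log2 fold 3.43 ± 0.39 over lung, adjusted p = 4.4e-05). Tnfrsf19 had 223 and 325 CPM against 0.151 to 14.8 (log2 fold 4.55 ± 0.45 over kidney, adjusted p = 1.7e-05). Notum, an enzyme that inactivates Wnt ligands, had 14.6 and 33.2 CPM against 0 to 0.377 (log2 fold 4.18 ± 0.40 over lung, adjusted p = 1.1e-05). The inhibitor Apcdd1, Tcf7, Reck, a part of the receptor complex for Wnt7 ligands, and Znrf3 were the others. Of the receptors, Fzd4 and Gpr124, chosen after their values were seen, were not called against all 4 and had 177 and 213 and 99.7 and 154 CPM in brain vascular cells, against 142 to 402 and 22.2 to 123 CPM in the organs. Tcf7l1, which in many cells represses Wnt targets, was lower (log2 fold -1.12 ± 0.29 over lung, adjusted p = 0.014). It was no longer called against all 4 under TMM scaling, quantile normalization or the omission of mitochondrial genes, with edgeR, or without brain vascular library 1. Without that library 6 of the 20 were higher, and without library 2, 5.

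Transcription factors known from brain endothelium were higher in the main. Of 11, 7 were higher against all 4 organs (2.48% of all genes), none was lower (2.81%), and 1 was lower than in brain endothelial cells (2.55%). Foxf2, a forkhead factor of the barrier, had 76.5 and 134 CPM in brain vascular cells, against 0 to 2.24 CPM in the organs (log2 fold 5.39 ± 0.41 over lung, adjusted p = 1.7e-06), Foxq1 85.7 and 158 CPM against 0 to 1.76 (log2 fold 5.98 ± 0.47 over heart, adjusted p = 2.5e-06), and Foxl2 15.9 and 18.1 CPM against 0 to 0.0420 (log2 fold 4.14 ± 0.30 over lung, adjusted p = 1.3e-06). For these 3 genes brain endothelial cells were at a level that did not pass the test against brain vascular cells, with 160.0 and 216, 152 and 158 and 22.2 and 22.7 CPM. Lef1, Tcf7 and Ppard were higher as well, and Lef1 and Tcf7 are also counted in the list of the beta-catenin pathway. With brain vascular library 2 left out, 4 of the 11 were called against all 4 organs.

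Outside the carriers, the highest genes by the naming rule included secreted and matrix proteins. Spock2, a proteoglycan of the extracellular matrix, had 3098 and 4166 CPM in brain vascular cells, against 1.32 to 35.9 CPM in the organs (log2 fold 6.87 ± 0.52 over heart, adjusted p = 1.9e-06), and 8430.2 and 8998 CPM in brain endothelial cells. Itm2a, a membrane protein, had 1875 and 2168 CPM against 1.14 to 21.7 (log2 fold 6.75 ± 0.28 over heart, adjusted p = 2.7e-08). Ptn, the growth factor pleiotrophin, had 436 and 513 CPM against 0.157 to 15.2 (log2 fold 5.05 ± 0.45 over heart, adjusted p = 6.2e-06). Vwa1, a matrix protein, had 405 and 665 CPM against 0.492 to 29.9 (log2 fold 4.12 ± 0.34 over kidney, adjusted p = 3.2e-06). Itih5, a hyaluronan-binding protein, had 725 and 1044 CPM against 0.377 to 66.4 (log2 fold 3.93 ± 0.30 over lung, adjusted p = 1.9e-06). Igf1r, the receptor of insulin-like growth factor 1, had 194 and 275 CPM in brain vascular cells, against 16 to 43.4 CPM in the organs (log2 fold 2.50 ± 0.25 over heart, adjusted p = 2.0e-05), and was lower than in brain endothelial cells, which had 703 and 703 CPM (log2 fold -1.60 ± 0.26, adjusted p = 0.0036, and 0.051 without brain vascular library 1).

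The promoters of 4 genes are shown, 2 for genes of the barrier and 2 for mural genes, because they hold letters that TCF/LEF factors, GATA factors or serum response factor are known to bind. They are from RefSeq on GRCm38.p6, the 250 bases before the start of the gene, read on its own strand. Capitals mark a match, which is CTTTGA for TCF/LEF factors on either strand, AGATAA for GATA factors on either strand, and the CArG box bound by serum response factor. The windows are chr10:60106007-60106256 on the plus strand, chr4:122961189-122961438 on the minus strand, chr1:169655251-169655500 on the plus strand and chr2:156775214-156775463 on the plus strand.
Spock2: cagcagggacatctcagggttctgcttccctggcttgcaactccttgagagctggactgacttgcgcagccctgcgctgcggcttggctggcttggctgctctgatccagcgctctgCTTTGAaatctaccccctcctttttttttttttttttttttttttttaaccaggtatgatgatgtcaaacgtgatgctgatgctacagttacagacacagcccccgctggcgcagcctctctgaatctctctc
Mfsd2a: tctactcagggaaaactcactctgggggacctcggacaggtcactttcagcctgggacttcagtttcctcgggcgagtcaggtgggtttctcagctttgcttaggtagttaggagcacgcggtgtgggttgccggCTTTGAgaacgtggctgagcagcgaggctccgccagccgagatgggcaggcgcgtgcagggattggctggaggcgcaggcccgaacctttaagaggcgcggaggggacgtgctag
Rgs5: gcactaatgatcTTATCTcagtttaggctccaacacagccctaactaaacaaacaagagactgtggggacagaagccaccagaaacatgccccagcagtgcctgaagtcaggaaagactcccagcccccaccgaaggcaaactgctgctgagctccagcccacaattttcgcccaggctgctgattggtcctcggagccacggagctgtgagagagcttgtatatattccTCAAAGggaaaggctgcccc
Myl9: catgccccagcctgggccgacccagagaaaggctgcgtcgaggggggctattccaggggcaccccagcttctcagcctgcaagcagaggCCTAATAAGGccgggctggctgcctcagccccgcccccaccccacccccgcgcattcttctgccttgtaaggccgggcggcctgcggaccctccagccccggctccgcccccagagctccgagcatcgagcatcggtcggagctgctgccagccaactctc

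CTTTGA lies 128 to 133 bases before the start in Spock2 and 110 to 115 in Mfsd2a. In Rgs5 it lies 15 to 20 bases before the start on the opposite strand, and the GATA letters 233 to 238 bases before it, also on the opposite strand. The CArG box of Myl9 lies 152 to 161 bases before the start and reads as such on both strands. In windows that also take in 50 bases after the start, CTTTGA was present in 46 of 292 higher genes with a promoter in the table (15.8%), 39 of 331 lower genes (11.8%), 12.2% of 11246 tested genes and 16.2% of all 27025 promoters. TGTTTAC for forkhead factors was in 1.71% of the higher genes, 3.32% of the lower, 2.47% of tested genes and 3.55% of all promoters, and AGATAA in 7.19, 6.65, 6.69 and 11.4%. The CArG box was in 2.05% of the higher genes, 2.11% of the lower, 1.3% of tested genes and 1.57% of all promoters, and in 3 of 78 genes that were also higher than in brain endothelial cells (3.85%). These are matches of letters and were not tested as binding.

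The higher set was then divided by the comparison with brain endothelial cells. Of 15920 genes in that fit, brain vascular cells were higher for 743 (4.67%) and lower for 406 (2.55%), with a median log2 fold of 0.00. With mitochondrial genes left out, 1377 were higher and 298 lower. The sum of 1149 calls was 180 without brain vascular library 1 (164 higher and 16 lower) and 538 without library 2 (251 higher and 287 lower), so the direction of the split depends on library 2. It was 591 without brain endothelial library 1 (407 higher and 184 lower) and 3283 without library 2 (1808 higher and 1475 lower). Lower genes numbered 248 to 256 without any one of the heart or kidney libraries, which share in the estimate of spread. Of the 388 genes, 103 were also higher than in brain endothelial cells with a log2 fold above 1 (26.5%, against 4.71% of the genes tested against organs), 5 were lower with a log2 fold below -1 (1.29%, against 2.37%), and 280 did not pass the test (72.2%). The brain vascular libraries stand in both comparisons, so nothing is read from these shares. The quartiles of the log2 fold over brain endothelial cells were 2.00, 2.64 and 3.52 for the 103 genes and -0.51, -0.05 and 0.47 for the 280. The reporter mice, the preparation and the sort of the brain endothelial cells cannot be told apart. The count of 103 rests on the spread of few libraries. It was 31 without brain vascular library 1 and 40 without library 2, 66 without the filter on low values, 61 with a pseudocount of 0.1, and 41 with edgeR on recovered reads. The 5 genes that were lower than in brain endothelial cells, 4 of which were named after their values were seen, were Igf1r, Apod, Ldlrad3, Gm9946 and 2610035F20Rik.

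**Figure D2:**
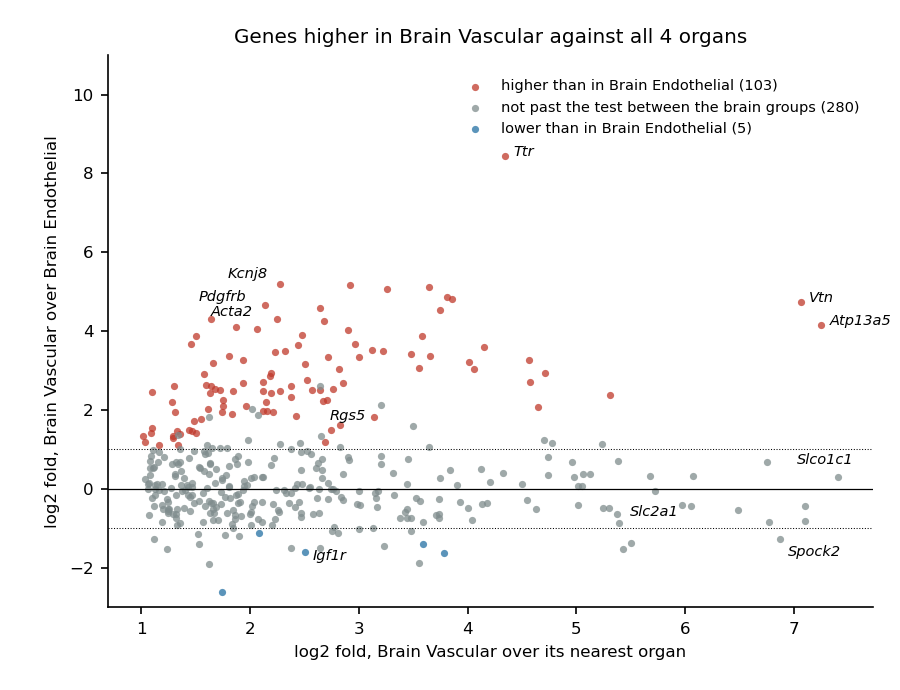
Each point is one of the 388 genes higher against all 4 organs, with the log2 fold over its nearest organ on the horizontal axis and the log2 fold of brain vascular over brain endothelial cells on the vertical axis. The 103 genes also higher than in brain endothelial cells lie above, the 280 genes that did not pass the test around 0, and the 5 lower genes below, and genes far to the right occur in the first and second of these sets.

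Pericyte genes were mostly higher in brain vascular than in brain endothelial cells. Of 17 tested pericyte markers, 12 were higher against all 4 organs (2.48% of all genes) and 16 were higher than in brain endothelial cells (4.67%). The median log2 fold over brain endothelial cells was 3.66, and 12 of the 103 genes are in this list of markers. Their summed level was 4209 to 5359 CPM in brain vascular cells, 1033 to 1038 in heart, 445 to 612 in kidney, 369 to 416 in lung, 284 to 416 in liver and 750 to 803 in brain endothelial cells. No marker was at 0 in both brain vascular libraries, whereas Slc6a20a was at 0 in heart, Tbx18 and Foxd1 in kidney, and Higd1b, Atp13a5, Zic1, Tbx18 and Foxd1 in liver. In such a mixed sample fewer cells of a type and less RNA per cell cannot be told apart. Calls against all 4 organs numbered 8 of the 17 without brain vascular library 1 and 9 without library 2.

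Pdgfrb, the receptor by which pericytes are recruited, had 178 and 197 CPM in brain vascular cells, against 43.7 and 39.9 in heart, 20.9 and 12.2 in kidney, 23.5 and 11.4 in lung and 4.73 and 10.8 in liver (log2 fold 2.14 ± 0.40 over heart, adjusted p = 0.0022). Brain endothelial cells had 6.12 and 6.83 CPM (log2 fold 4.66 ± 0.42, adjusted p = 8.4e-05), below every one of the 8 organ libraries except liver library 1. Its ligand Pdgfb, made by the endothelium, had 106 and 168 CPM in brain vascular cells, 155 and 177 CPM in kidney and 135 and 190.4 CPM in brain endothelial cells, and passed against neither. Vtn, the secreted protein vitronectin, had 789.8 and 738 CPM in brain vascular cells and 0.411 to 5.53 CPM in the organs (log2 fold 7.06 ± 0.42 over heart, adjusted p = 2.9e-07), and 17.8 and 41.8 CPM in brain endothelial cells (4.75 ± 0.48, adjusted p = 2.1e-04). Notch3, the Notch receptor of mural cells, had 95.3 and 124 CPM in brain vascular cells, 0.157 to 25.6 in the organs (log2 fold 2.44 ± 0.41 over kidney, adjusted p = 0.0011) and 7.83 and 7.53 in brain endothelial cells.

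Rgs5, a regulator of G-protein signalling that marks pericytes, had 3387 and 2328 CPM in brain vascular cells, against 457 and 420.1 in heart, 269 and 126 in kidney, 19.0 and 12.4 in lung and 42.9 and 109 in liver (log2 fold 2.68 ± 0.43 over heart, adjusted p = 7.5e-04). In brain endothelial cells it had 554 and 653 CPM (log2 fold 2.22 ± 0.43, adjusted p = 0.0096), a call that was lost without brain vascular library 1 (adjusted p = 0.11) and without the filter (adjusted p = 0.062). Both brain endothelial libraries were above all 8 organ libraries for this gene, and both brain vascular libraries were above the brain endothelial ones. Cspg4, the proteoglycan NG2, had 56.8 and 67.9 CPM in brain vascular cells, 0.114 to 6.66 in the organs (log2 fold 3.26 ± 0.43 over kidney, adjusted p = 1.5e-04) and 0 and 2.48 in brain endothelial cells (5.08 ± 0.58, adjusted p = 4.2e-04). Higd1b had 46.9 and 32.8 CPM, against 0 to 2.37 in the organs (log2 fold 3.82 ± 0.37 over lung, adjusted p = 1.2e-05) and 0 and 0.935 in brain endothelial cells (4.86 ± 0.42, adjusted p = 8.0e-05). Abcc9, the sulfonylurea receptor that forms a channel with Kcnj8, was not in the set, since heart had 127 and 96 CPM against 184 and 156 in brain vascular cells (log2 fold 0.61 ± 0.31, adjusted p = 0.16).

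Carriers and channels known from mural and perivascular cells of the brain were mostly in the higher set. Of 13 tested, 10 were higher against all 4 organs (2.48% of all genes). Against brain endothelial cells 8 were higher (4.67% of all genes), with a median log2 fold of 3.16 there. Atp13a5, a P5-type ATPase, had 184 and 143 CPM in brain vascular cells and 0 to 0.151 CPM in the organs, with no read in either liver library (log2 fold 7.25 ± 0.34 over heart, adjusted p = 7.1e-08), and 9.27 and 7.11 CPM in brain endothelial cells (4.16 ± 0.38, adjusted p = 8.4e-05). Kcnj8, the Kir6.1 potassium channel, had 102 and 63.1 CPM against 8.97 to 24.5 (log2 fold 2.27 ± 0.41 over liver, adjusted p = 0.0012) and 0.959 and 1.54 in brain endothelial cells (5.18 ± 0.45, adjusted p = 8.0e-05). P2ry14, a receptor of UDP-glucose, had 56.1 and 55.6 CPM against 0.0373 to 4.70 (log2 fold 3.65 ± 0.52 over lung, adjusted p = 2.7e-04) and 0.692 and 0.561 in brain endothelial cells (5.13 ± 0.53, adjusted p = 2.1e-04). These 3 genes were lower in brain endothelial cells than in the lower of the 2 brain vascular libraries by more than 10 times. Slc6a20a, an imino acid carrier, had 28.6 and 24.6 CPM, against 0 to 0.0862 in the organs (log2 fold 4.71 ± 0.31 over liver, adjusted p = 2.8e-07) and 1.01 and 5.42 in brain endothelial cells, and Slc30a10, a manganese exporter, had 16.8 and 10.6 CPM against 0 to 0.251 and 0 and 0.935. Both calls over brain endothelial cells were lost with edgeR on recovered reads (adjusted p = 0.073 and 0.099). With brain vascular library 1 or 2 left out, 4 of the 13 were called against all 4 organs. This list shares Kcnj8, Abcc9, Atp13a5 and Slc6a20a with the pericyte markers.

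Smooth muscle genes were higher in part. Of 17 smooth muscle markers, Acta2, Myl9, Tpm2, Nrip2 and Kcnmb1 were higher against all 4 organs (2.48% of all genes), and none was lower (2.81%). Against heart 10 were higher and 2 lower (12.2 and 16% of all genes), and against kidney 7 and 1 (5.89 and 17.1%). Against lung 7 were higher and 3 lower (5.22 and 15.1%), and against liver 12 and 0 (11.6 and 13.2%). Against brain endothelial cells 10 were higher (4.67% of all genes), with a median log2 fold of 2.13. The summed level of the list was 665 to 807 CPM in brain vascular cells, 226 to 289 in heart, 385 to 429 in kidney, 377 to 400 in lung, 64.4 to 107 in liver and 169 to 206 in brain endothelial cells, and Actg2 was at 0 in both brain vascular libraries. Myl9, a myosin regulatory light chain, had 181 and 177 CPM in brain vascular cells, against 2.65 to 30.1 in the organs (log2 fold 2.90 ± 0.48 over kidney, adjusted p = 9.8e-04) and 7.99 and 12.7 in brain endothelial cells (4.02 ± 0.50, adjusted p = 7.9e-04). Acta2, smooth muscle actin, had 113 and 204 CPM against 3.97 to 53.4 (log2 fold 1.87 ± 0.47 over lung, adjusted p = 0.014) and 11 and 5.47 in brain endothelial cells (4.12 ± 0.51, adjusted p = 7.5e-04). Its organ call was lost without brain vascular library 2 (adjusted p = 0.12), without kidney or lung library 2, and without the filter. Tagln, or transgelin, had 19.1 and 30.2 CPM in brain vascular cells and 22.5 and 13.6 CPM in lung, and Myh11, smooth muscle myosin, 52.7 and 65.4 CPM and 39.1 and 14.8 CPM in kidney. Neither passed in those organs (adjusted p = 0.56 and 0.13) or against brain endothelial cells. Without brain vascular library 1, 3 of the 17 were called against all 4 organs and 5 against brain endothelial cells, and without library 2, 2 and 6.

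Casq2, a calcium-binding protein of muscle, had 82.1 and 66.8 CPM in brain vascular cells, against 0 to 12.6 in the organs (log2 fold 2.92 ± 0.48 over heart, adjusted p = 8.7e-04) and 1.97 and 0.468 in brain endothelial cells (5.17 ± 0.53, adjusted p = 2.1e-04). With a pseudocount of 0.1 the organ call was lost (adjusted p = 0.062). Of 10 transcription factors known from mural cells, 6 were higher against all 4 organs (2.48% of all genes) and Meis2 was lower (2.81%). Against brain endothelial cells 5 were higher (4.67%). This last count was 2 with edgeR and 3 with a pseudocount of 0.1, and it fell with brain vascular library 1 or 2 left out. Zic1 had 26.8 and 23 CPM in brain vascular cells, 0 to 0.0420 in the organs (log2 fold 4.64 ± 0.31 over heart, adjusted p = 7.5e-07) and 7.93 and 3.18 in brain endothelial cells (2.08 ± 0.40, adjusted p = 0.009). Zic4 had 5.18 and 6.30 CPM, no read in any of the 8 organ libraries, and 1.70 and 1.08 CPM in brain endothelial cells. Tbx18, a T-box factor of mural cells, had 11.9 and 10.6 CPM against 0 to 1.66 (log2 fold 2.83 ± 0.41 over heart, adjusted p = 3.4e-04) and 2.77 and 3.18 in brain endothelial cells (1.63 ± 0.42, adjusted p = 0.036). The calls of these 3 factors over brain endothelial cells were lost without brain vascular library 1 (adjusted p = 0.087, 0.065 and 0.18), with edgeR (0.082, 0.275 and 0.361) and with a pseudocount of 0.1 (0.083, 0.097 and 0.273). With edgeR Tbx18 also lost its organ call (adjusted p = 0.075).

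**Figure D3:**
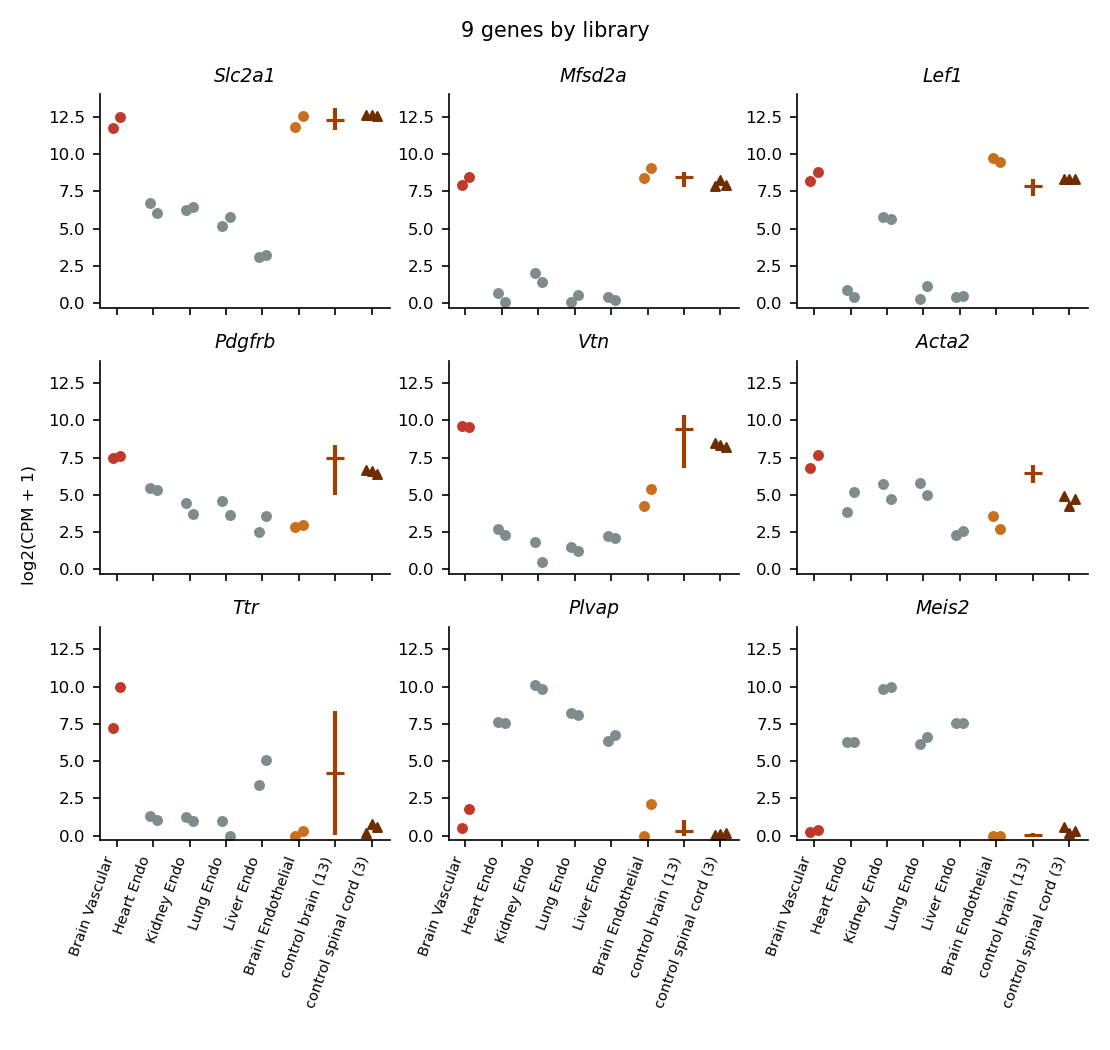
CPM of 9 genes in each library on a log2(CPM + 1) axis, with brain vascular cells at the left, then the 4 organs, brain endothelial cells, and the controls of brain (line from the lowest to the highest of 13 libraries with the median) and spinal cord. Pdgfrb, Vtn and Acta2 are low in brain endothelial cells, Pdgfrb and Vtn spread widely over the brain controls, Ttr differs most between the 2 brain vascular libraries, and Slc2a1, Mfsd2a and Lef1 are high in every brain group.

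The brain controls share no library with the comparison and are given as levels alone. Slc2a1 had a lowest, median and highest level of 3136, 4921 and 8835 CPM there, Slco1c1 1221, 1597 and 2131 CPM and Mfsd2a 216, 346 and 436 CPM. All 13 lay above the 8 organ libraries for these carriers. Those organ libraries also chose the genes, so nothing is read from this. Pdgfrb had 30.4, 178 and 326 CPM, Vtn 112, 676 and 1321 CPM and Atp13a5 25.8, 176 and 328 CPM, a spread of about 10 times or more between controls. The summed pericyte level in the controls was 1098 to 8531 CPM, with a median of 6028, so brain vascular cells lay inside that range and brain endothelial cells, at 750 to 803 CPM, below it. In the 3 spinal cord controls Pdgfrb had 102, 95.1 and 84.2 CPM, Vtn 354, 320.4 and 296 CPM and Slc2a1 6279.6, 6391 and 5972 CPM.

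**Figure D4:**
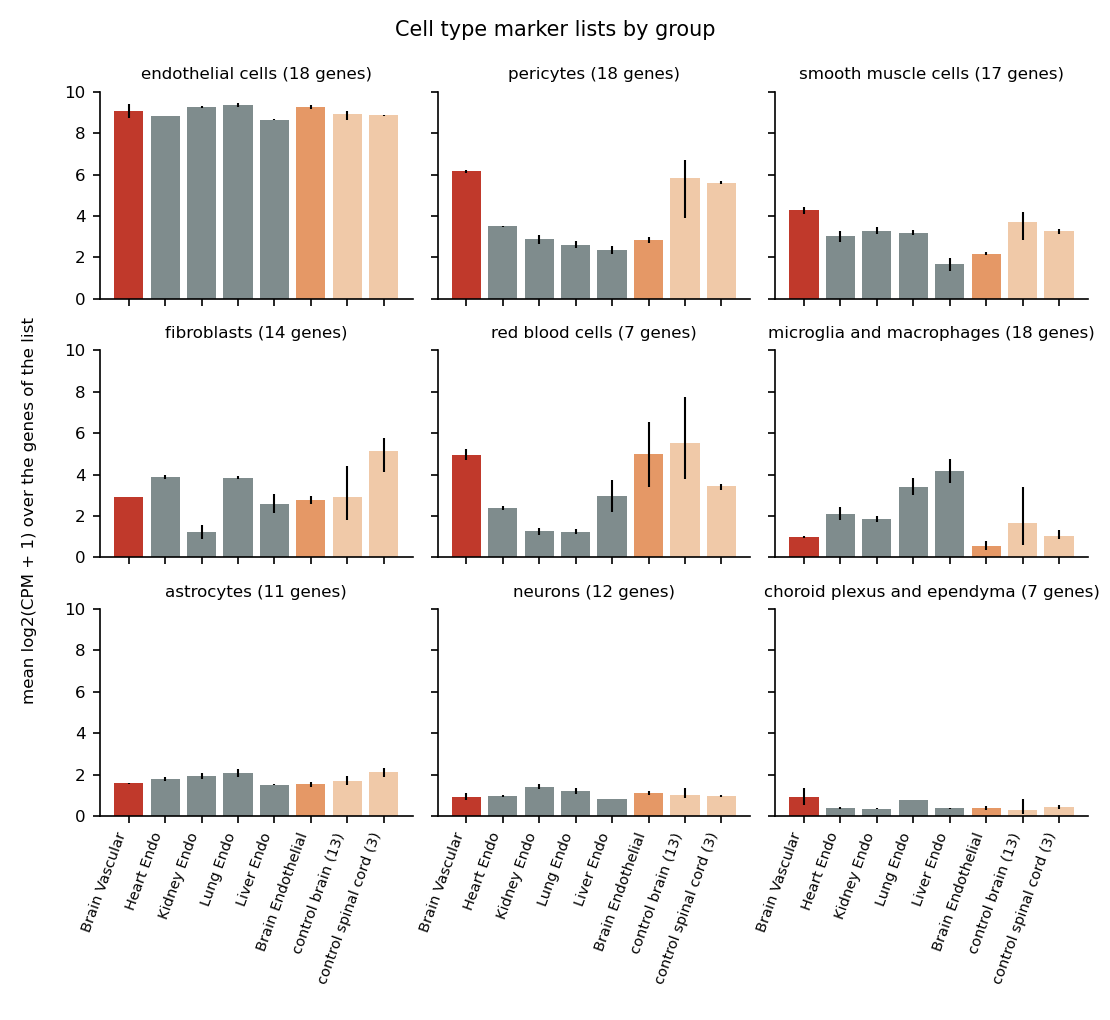
Mean log2(CPM + 1) of 9 lists of cell markers in brain vascular cells, the 4 organs, brain endothelial cells, and the brain and spinal cord controls, with bars at the mean over the libraries of a group and lines from the lowest to the highest library. Endothelial markers are near 9 in every sorted group, pericyte markers are at 6.15 in brain vascular cells and 2.84 in brain endothelial cells, and markers of astrocytes and neurons are at most 2.08 in brain vascular cells and the organs.

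Ttr, which encodes the thyroid hormone binding protein transthyretin, had the largest fold over brain endothelial cells of the higher set. It had 145 and 1008 CPM in brain vascular libraries 1 and 2, against 1.47 and 1.02 in heart, 1.38 and 0.933 in kidney, 0.948 and 0 in lung and 9.54 and 32.7 in liver (log2 fold 4.35 ± 0.77 over liver, adjusted p = 0.001), and 0 and 0.234 CPM in brain endothelial cells (log2 fold 8.43 ± 0.77, adjusted p = 8.4e-05). The level in library 2 was about 7 times that in library 1. In the 13 brain controls it was 0.0344, 17.8 and 325 CPM, and in the spinal cord controls 0.123, 0.697 and 0.485 CPM. Transthyretin is a main product of the choroid plexus, and 7 markers of choroid plexus and ependyma summed to 3.99 CPM in brain vascular library 1 and 16.1 CPM in library 2. These sums were 2.84 to 10.6 CPM in the organs, 2.61 to 4.39 CPM in brain endothelial cells, where Folr1, Clic6, Kcne2, Otx2 and Ccdc153 were at 0, and 27.2 to 45.2 CPM in whole brain. Clic6 had 1.03 and 3.31 CPM in brain vascular cells and no read in brain endothelial cells, and Ccdc153 was at 0 in both brain vascular libraries. The part of such cells in the level of Ttr was not tested.

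Enzymes known from the barrier fell on both sides of the split. Of 14 ectoenzymes and monoamine enzymes, 5 were higher against all 4 organs (2.48% of all genes), Ggt1, Maob, Ddc and Ptgds among them, and none was lower (2.81%). Against brain endothelial cells 5 were higher (4.67%), a count of 3 without the filter and fewer than 5 without brain vascular library 1. Ddc, which decarboxylates DOPA, had 83.0 and 116 CPM in brain vascular cells, 0 to 1.26 CPM in the organs (log2 fold 5.68 ± 0.39 over lung, adjusted p = 7.5e-07) and 74.0 and 82.7 CPM in brain endothelial cells. Ptgds, a prostaglandin D synthase, had 104 and 47.4 CPM against 0.259 to 1.88 (log2 fold 5.13 ± 0.46 over heart, adjusted p = 6.6e-06), and its brain endothelial values of 14.4 and 195 CPM lay on either side of both.

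Other genes of the vessel wall were called in part. The counts of this paragraph stand beside 2.48% of all genes higher and 2.81% lower against all 4 organs, and nothing is read about a list from a single member. Of 32 genes of signalling between endothelium and mural cells, Pdgfrb, Notch3, Heyl, S1pr3 and Cdh2 were higher against all 4 organs and Ednrb was lower. Against brain endothelial cells 7 were higher (4.67% of all genes) and 4 lower (2.55%). The count of lower genes was 0 without brain vascular library 1, 1 without either kidney library, the filter or the trend or with the 2 brain groups alone, and 2 without brain endothelial library 1. Of 31 genes of basement membrane and matrix, Lama2, Lamc3, Spock2 and Vtn were higher and Nid1, Bgn and Emilin1 lower against all 4 organs. Bgn, the proteoglycan biglycan, had 57.7 and 47.7 CPM in brain vascular cells and 293 to 1156 CPM in the organs (log2 fold -2.57 ± 0.30 over kidney, adjusted p = 6.3e-05). Of 15 genes of arterial and venous identity, Gkn3, known from arteries of the brain, had 45.3 and 126 CPM against 0 to 4.70 (log2 fold 4.57 ± 0.60 over kidney, adjusted p = 1.6e-04). Slc38a5, a glutamine carrier known from veins, had 77.4 and 164 CPM against 0 to 4.74 (log2 fold 4.74 ± 0.44 over lung, adjusted p = 8.6e-06). Of 15 genes of vascular tone, Kcnmb1, a subunit of the calcium-activated potassium channel, was the only one higher against all 4, with 14.7 and 14.5 CPM in brain vascular cells and 0 to 1.49 CPM in the organs (log2 fold 3.21 ± 0.39 over heart, adjusted p = 8.3e-05). Of 14 fibroblast markers, 1 was higher against all 4, Aldh1a2, with 5.01 and 1.75 CPM against 0 to 0.756. This call was lost without the filter (adjusted p = 0.086), with a pseudocount of 0.1 (0.124), with edgeR (0.303), in the fit on 12 libraries (0.054), and without heart library 1, kidney library 2, or lung or liver library 1. The summed level of the fibroblast markers was 137 to 180 CPM in brain vascular cells, 2098 to 2262 CPM in heart and 63.2 to 613 CPM in the other organs.

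**Figure D5:**
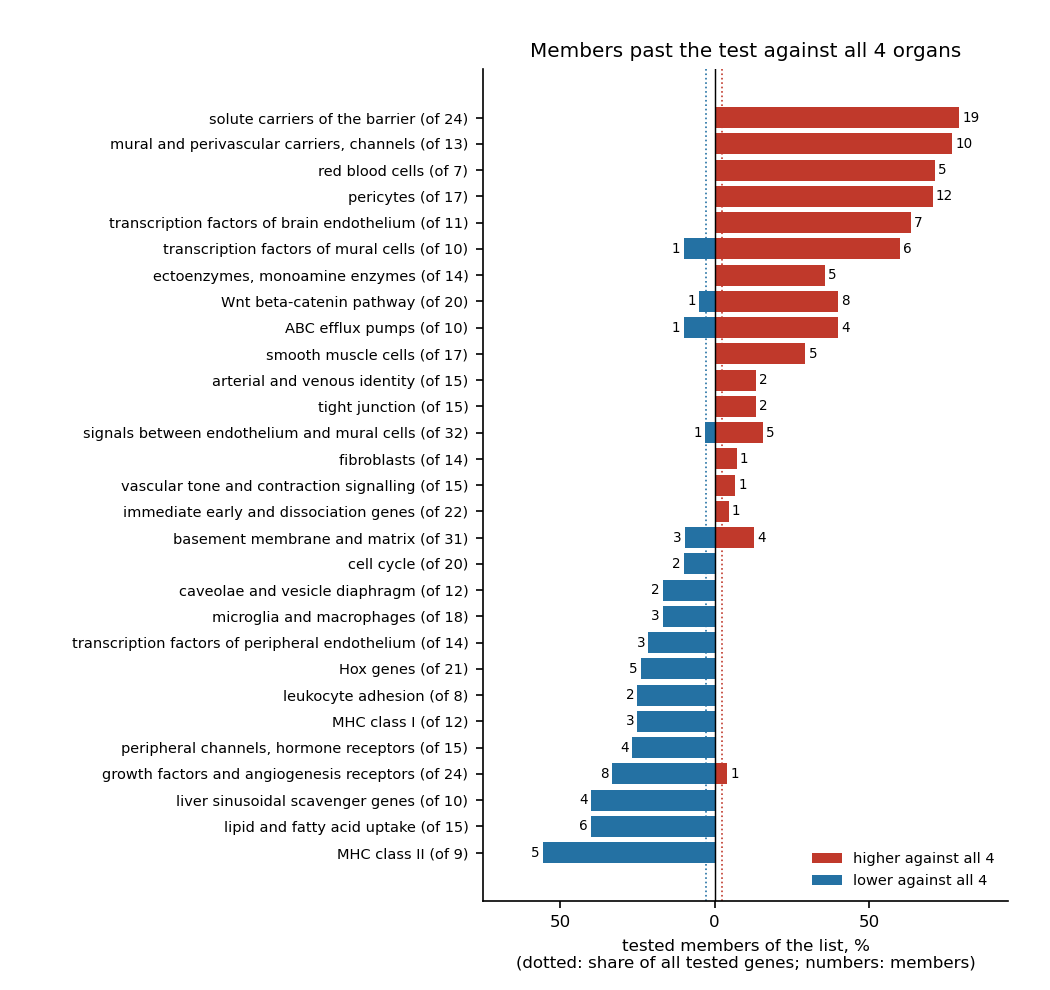
Share of the tested members of each gene list that was higher (right) or lower (left) in brain vascular cells against all 4 organs, with the count beside each bar and dotted lines at the shares over all genes, 2.48% and 2.81%. Solute carriers (19 of 24) and pericyte markers (12 of 17) reach far to the right, and MHC class II (5 of 9) and lipid uptake (6 of 15) reach far to the left. The lists were written with earlier results of these data known, so nothing is read from these shares.

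A water channel and genes of fatty acid uptake had the largest folds of the lower set. Aqp1, a water channel, had 0.164 and 1.47 CPM in brain vascular cells, against 441 and 512 in heart, 776 and 669 in kidney, 1564 and 1189 in lung and 3059.6 and 2748 in liver (log2 fold -8.13 ± 0.31 over heart, adjusted p = 1.8e-08). Of 15 lipid and fatty acid uptake genes, Cd36, Fabp4, Fabp5, Gpihbp1, Pparg and Cd300lg were lower against all 4 organs (2.81% of all genes) and none was higher. The count was 6 lower and 0 higher under every scaling tried and with each library left out in turn. Cd36, a fatty acid translocase, had 0.822 and 0.638 CPM in brain vascular cells, against 1966 and 1857 in heart, 329.6 and 267 in kidney, 2248 and 1651 in lung and 649 and 514 in liver (log2 fold -7.43 ± 0.24 over kidney, adjusted p = 3.6e-09). Gpihbp1, which anchors lipoprotein lipase to capillaries, had 0.247 and 0.359 CPM against 79.5 to 1427 (log2 fold -6.57 ± 0.34 over heart, adjusted p = 1.2e-07). Fabp4, a fatty acid binding protein, had 4.11 and 1.43 CPM against 56.7 to 1364 (log2 fold -4.40 ± 0.33 over lung, adjusted p = 1.7e-06). Brain endothelial cells were low as well, with 0 and 0.888 CPM of Aqp1, 0.266 and 1.68 of Cd36 and 0 and 0 of Gpihbp1, and the 13 brain controls had 0.0657 to 0.936, 0.143 to 3.30 and 0 to 0.833 CPM.

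Of 15 genes for water and ion channels and hormone receptors, 4 were lower against all 4 organs (2.81% of all genes), Aqp1, Ednrb and Npr1 among them. Ednrb, an endothelin receptor, had 1.85 and 6.46 CPM in brain vascular cells and 153 to 799.9 CPM in the organs (log2 fold -5.20 ± 0.36 over liver, adjusted p = 3.9e-07). Npr1, a receptor of natriuretic peptides, had 12.0 and 19.1 CPM against 52.5 to 221 (log2 fold -1.74 ± 0.24 over heart, adjusted p = 2.4e-04). Of 12 genes of caveolae and vesicle diaphragms, Plvap and Cd36 were lower against all 4 (2.81% of all genes). Plvap, the diaphragm protein of fenestrae and caveolae, had 0.411 and 2.39 CPM in brain vascular cells, against 194 and 186 in heart, 1103 and 922 in kidney, 297 and 275 in lung and 79.4 and 105 in liver (log2 fold -5.40 ± 0.34 over liver, adjusted p = 1.7e-07). Cav1, the coat protein of caveolae, had 390.5 and 635 CPM in brain vascular cells and 55.2 to 2456 CPM over the organs. It was lower against heart and lung and higher against kidney and liver (log2 folds -1.17 ± 0.30, -2.04 ± 0.30, 1.06 ± 0.30 and 2.91 ± 0.30). Further genes of the lower end were Car8 (log2 fold -6.26 ± 0.25 over kidney, adjusted p = 1.0e-08), a carbonic anhydrase relative, Slc43a3 (log2 fold -6.09 ± 0.20 over heart, adjusted p = 5.3e-09), a purine base carrier, Mlxip (log2 fold -5.58 ± 0.35 over lung, adjusted p = 3.8e-07), a glucose-sensing transcription factor, and Cyp4b1 (log2 fold -5.57 ± 0.27 over heart, adjusted p = 9.3e-08), a cytochrome P450.

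Some genes of position along the body and of organ identity were lower. Meis2, a cofactor of Hox proteins, had 0.164 and 0.319 CPM in brain vascular cells, against 74.9 and 75.2 in heart, 898 and 988 in kidney, 68.7 and 96.6 in lung and 188 and 191 in liver (log2 fold -5.94 ± 0.23 over heart, adjusted p = 1.8e-08), and no read in brain endothelial cells. Of 39 Hox genes 21 were tested, and Hoxa2, Hoxa3, Hoxa4, Hoxa5 and Hoxb4 were lower against all 4 organs (2.81% of all genes). Hox genes set position along the body axis. Of the 21, 19 were lower against kidney (17.1% of all genes), 11 against lung (15.1%), 10 against liver (13.2%) and 6 against heart (16%). Their median log2 folds were -3.59 over kidney, -1.085 over lung, -1.02 over liver and -0.48 over heart. Hoxa5 had 0.0411 and 0 CPM in brain vascular cells and 12.6 to 110.4 CPM in the organs, Hoxb4 0.0822 and 0 CPM and 8.92 to 38.2 CPM, and Hoxa3 no read in brain vascular cells and 2.75 to 10.8 CPM. Of 14 transcription factors of peripheral endothelium, Gata6, Maf and Pparg were lower against all 4 (2.81% of all genes). Against liver 5 were higher (11.6% of all genes) and 4 lower (13.2%). Gata6, a factor of heart endothelium among others, had 0.370 and 1.16 CPM against 4.50 to 119.9 (log2 fold -1.75 ± 0.35 over liver, adjusted p = 0.0026). Pparg, a regulator of fatty acid storage, had 0.452 and 0 CPM against 2.67 to 41.2 (log2 fold -1.93 ± 0.36 over liver, adjusted p = 0.0016).

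Several genes of growth factor signalling were lower. Of 24 genes of growth factors and angiogenesis, 1 was higher against all 4 organs (Igf1r, beside 2.48% of all genes). Nrp1, Nrp2, Vegfa, Plxnd1, Igfbp4, Igfbp5, Bmp4 and Bmp6 were lower (2.81% of all genes). The lower genes numbered 6 under TMM scaling, quantile normalization and the omission of mitochondrial genes, and their count also fell without brain vascular library 1. Nrp1, a coreceptor of VEGF and semaphorins, had 195 and 319 CPM in brain vascular cells and 904 to 1709 CPM in the organs (log2 fold -1.89 ± 0.27 over heart, adjusted p = 2.7e-04). Bmp6 had 0.575 and 4.66 CPM against 21.6 to 244 (log2 fold -3.20 ± 0.45 over kidney, adjusted p = 3.0e-04). Of 10 scavenger genes of liver sinusoids, Stab1, Stab2, Mrc1 and F8 were lower against all 4 organs (2.81% of all genes), of which Stab1 and F8 were called without brain vascular library 1. Stab2, a hyaluronan receptor, had 0.123 and 0.837 CPM in brain vascular cells, 5.34 and 2.66 in heart, 6.42 and 5.86 in kidney, 15.0 and 29.8 in lung and 2929 and 3001 in liver. The call against the nearest organ, heart, was lost without brain vascular library 1 (adjusted p = 0.055) or heart library 1 (0.07).

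MHC class II genes, which present antigen, were lower in part, and so were class I and leukocyte adhesion genes. Of 9 MHC class II genes, H2-Aa, H2-Ab1, H2-Eb1, H2-DMa and Cd74 were lower against all 4 organs (2.81% of all genes). Of these, H2-Aa, H2-Ab1 and Cd74 kept the call with brain vascular library 1 or 2 left out. Cd74, the invariant chain, had 9.86 and 2.43 CPM in brain vascular cells, against 47.8 and 234 in heart, 162 and 170.1 in kidney, 199 and 269.5 in lung and 279.6 and 74.5 in liver (log2 fold -4.13 ± 0.73 over heart, adjusted p = 0.0014). The heart and liver libraries of this gene differed between replicates by more than 3 times. Macrophages carry class II as well, and 18 markers of microglia and macrophages summed to 29.6 to 37.6 CPM in brain vascular cells, with Emr1, Clec4f and Marco at 0. The sums were 87.5 to 216 CPM in heart, 69.2 to 95.8 in kidney, 1367 to 2007 in lung and 466 to 1226 in liver. Of the 18 markers, C1qb, Fcer1g and Cd68 were lower against all 4 organs (2.81% of all genes). C1qb lost the call without the filter (adjusted p = 0.15), without the trend (0.0504), with quantile normalization (0.085) and with TMM scaling (0.0508), and Cd68 without the filter (0.119). Both lost it without brain vascular library 1 or 2, heart library 2 or kidney library 2, C1qb also without lung library 2 and Cd68 without heart library 1. The part of macrophage RNA of the organs in the class II difference was not tested. Of 12 class I genes, H2-Q6, H2-Q7 and Tap1 were lower against all 4 (2.81% of all genes). None was called without brain vascular library 1, kidney library 2 or lung library 2, or without the filter, and 8 of the 12 were called without brain vascular library 2.

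Of 8 leukocyte adhesion genes tested, Sele and Selp were lower against all 4 organs (2.81% of all genes). Sele, or E-selectin, had 0.740 and 0.399 CPM in brain vascular cells, against 367 and 211 in heart, 14.1 and 16.9 in kidney, 73.9 and 224 in lung and 5.91 and 74.0 in liver (log2 fold -3.40 ± 0.83 over kidney, adjusted p = 0.011). Selp, or P-selectin, had 0.288 and 0.120 CPM against 6.72 to 554 (log2 fold -3.22 ± 0.83 over kidney, adjusted p = 0.014). All 8 organ libraries were above both brain vascular libraries, as for 439 of the 440 lower genes and 11% of tested genes. The same libraries chose these genes, so nothing is read from this. Both calls were lost without brain vascular library 1 or 2, without kidney library 1 and without the filter (adjusted p = 0.082 and 0.096). Sele also lost its call without kidney library 2. Of 20 cell cycle genes, Mki67 and Top2a were lower against all 4 (2.81% of all genes). They had 0 and 1.51 and 0 and 1.12 CPM in brain vascular cells and 13.1 to 51.7 and 3.40 to 28.9 CPM in the organs. Top2a lost the call without brain vascular library 1 (adjusted p = 0.134) or kidney library 1 (0.084), and with edgeR (0.067). Of 22 immediate early and dissociation genes, Nr4a1 alone was higher against all 4 (2.48% of all genes), so nothing is read about the list. Its log2 fold over kidney was 1.36 ± 0.41 (adjusted p = 0.031). The call was lost with brain vascular or kidney library 1 or 2 left out, without the filter or the trend, and in the fits on 12 and 16 libraries. In the same list Fosb, Jun, Jund and Egr1 were lower than in brain endothelial cells (2.55% of all genes). That count was 0 without the filter, 1 with quantile normalization and 2 without the trend. It also fell without brain vascular library 1 or without library 2 of either brain group. The median log2 fold of the list there was -0.92, against 0.00 for all genes. Digestion steps are described for the brain endothelial cells and not for the brain vascular cells, and the part of digestion was not tested.

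Markers of astrocytes, neurons and oligodendrocytes were far lower in the sorted cells than in whole brain. Red blood cell genes and markers of the organs' own tissue were higher in some sorted groups than in others. The mean log2 level of 11 astrocyte markers was 1.58 in brain vascular cells, 1.51 to 2.08 in the organs and 6.58 in whole brain. For 12 neuron markers it was 0.93, 0.82 to 1.41 and 8.32, and for 12 oligodendrocyte markers 0.48, 0.71 to 0.82 and 6.16. The highest summed levels in the organs were 294 CPM of astrocyte markers (heart), 241 of neuron markers (lung) and 97.7 of oligodendrocyte markers (liver). Whole brain had 3574 to 4735, 7583 to 9183 and 1894 to 3029 CPM of these. None of the tested markers of these 3 types was higher against all 4 organs. Of 7 red blood cell genes, 5 were higher against all 4 (2.48% of all genes). The summed levels of the 7 were 858 to 1230 CPM in brain vascular cells, 105 to 112 in heart, 15.2 to 29.9 in kidney, 16.9 to 23.2 in lung, 88.8 to 370 in liver and 211 to 1930 in brain endothelial cells. Hbb-b1, a beta globin, had 693 and 969 CPM in brain vascular cells and 9.93 to 297 CPM in the organs (log2 fold 2.47 ± 0.53 over liver, adjusted p = 0.004), so 5 of the 388 genes are of red blood cells. In the fit on 16 libraries Hbb-b1 lost the call (adjusted p = 0.076). Without brain vascular library 2, 2 of the 7 were called. Markers of the organs' own tissue were lower against their own organ, namely 7 of 7 cardiomyocyte genes against heart (16% of all genes), 7 of 7 kidney tubule genes against kidney (17.1%), 8 of 8 lung epithelial genes against lung (15.1%) and 7 of 8 hepatocyte genes against liver (13.2%). None of these was lower against all 4 organs. In their own organ these lists summed to 112 CPM in heart, 42.5 to 121 in kidney, 196 to 1182 in lung and 105 to 241 in liver. In brain vascular cells the same lists summed to 0.329 to 1.36, 1.32 to 2.30, 2.75 to 3.16 and 14.9 to 19.5 CPM. The part of such tissue RNA in the calls was not tested.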

How the data were processed

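RNA-seq of sorted mouse cells was measured as CPM, which the authors deposited as 1 column per library, scaled so that each column sums to 1000000, per the file headers. No roles are given for the tools and the build in the submitters' processing notes, which are TopHat2 2.0.13, Subread, featureCounts and mm9. Whole reads were recovered with the smallest nonzero value of each library taken as a single read, and 100% of 1374704 nonzero values came out whole, with a tolerance of 0.001. Repeated symbols were kept apart by identifier. Groups came from the labels.

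Genes over 1 CPM in at least 2 libraries were tested on log2(CPM + 1) with limma 3.58.1 with a trend (R 4.3.3) and the Benjamini-Hochberg adjustment over all tested genes. The organ fit held 10 libraries in 5 groups, and the fit with brain endothelial cells 12. The organ fit was run on simulated reads in which the 4 organs were alike and 1 setting of spread served all genes. The changed genes had large folds and were not near the floor. The run therefore cannot show how reliable calls of low genes, small folds or unlike replicates are.

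Members, gene lists and rules were chosen with earlier results of these data known. Named genes were the 10 highest and 10 lowest of those above the median level, the 6 largest on each side of the split, up to 3 members of each list by p, fixed markers, and genes at the threshold of 1. The other list members in the text were picked with their values in view. Alternatives were no filter, a pseudocount of 0.1, no trend, quantile and TMM scaling, omitted mitochondrial genes, edgeR 4.0.16 on recovered reads, fits on the 2 groups compared or on 12 or 16 libraries, the replicate block, a log2 fold beyond 0, and each library left out. Some genes are not reported here.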

Additional observations from a re-analysis of the deposited data

How the results depend on the processing

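No called fold of a named gene changed sign under the alternatives run, but the balance of higher and lower calls turned against heart with quantile normalization (2485 and 2398), against liver with quantile normalization, TMM scaling and mitochondrial genes left out (2187 to 2224 and 2161 to 2191), against heart and liver without brain vascular library 1, against liver without liver library 2, and against brain endothelial cells without brain vascular library 2 (251 and 287). The genes higher against all 4 organs numbered 312 to 493 and the lower genes 300 to 543 under the alternatives that keep all libraries, and all 388 higher genes were called under TMM scaling, quantile normalization and the omission of mitochondrial genes. With all libraries kept, the sums of calls and sets that moved by over 1.5 times were those against brain endothelial cells, 559 without the filter, and the 103 genes also higher than there, 66 without the filter, 61 with a pseudocount of 0.1 and 41 with edgeR on recovered reads. In 1 direction, higher genes against kidney moved to 1559 with TMM scaling and 1551 with quantile normalization, against lung to 1274 and 1490, and against brain endothelial cells to 1377 with mitochondrial genes left out. Lower genes against kidney moved to 1555 with edgeR. Against brain endothelial cells higher genes moved to 402 without the filter, and lower genes to 157 without the filter, 265 without the trend, 243 with the 2 groups alone and 661 with 16 libraries. The causes were not tested. With each library left out in turn, calls ranged from 2080 to 4714 against heart, 1776 to 3821 against kidney, 1924 to 3160 against lung, 2751 to 4057 against liver and 180 to 3283 against brain endothelial cells. The higher set ranged from 219 to 383, the lower set from 240 to 496, and the 103 genes from 31 to 123. Whether the replicate numbers pair the libraries is not given by the labels. The difference between brain vascular libraries 1 and 2 correlated with that in the other groups by 0.00136 to 0.04. Those of the other groups correlated with each other by -0.208 to 0.19. With 1 difference per group, these values cannot decide whether libraries are paired. With the replicate block the counts were 4360 against heart, 3608 against kidney, 3195 against lung, 3887 against liver, 1115 against brain endothelial cells, 393 higher, 442 lower and 103 in the split. Each group holds 2 libraries, so 1 library can decide a call, and low genes rest on few reads.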
